A study of Arabidopsis thaliana with 4 samples.

Results

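Cohesin is the ring-shaped complex that holds sister chromatids together from DNA replication until they separate. A pair of SMC proteins is closed by a kleisin subunit, and SCC3 binds the kleisin. SCC2 loads the ring, CTF7 acetylates it during replication so that cohesion becomes stable, and PDS5 and WAPL proteins bind it and regulate its release. Separase later cuts the kleisin. The 9 genes described here cover these roles: the somatic kleisins SYN2, SYN3 and SYN4, the subunit SCC3, the loader SCC2, the acetyltransferase CTF7, the regulator PDS5A, and the release factors WAPL1 and WAPL2. They are defined by a list of locus identifiers, with no threshold on a measured value, and all 9 of them are among the 32548 genes in the table. The kleisin SYN1, which is the meiotic one, and the SMC subunits are given only for context.

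Messenger RNA was sequenced from 2-week-old Arabidopsis thaliana seedlings in 2 groups of 2 libraries each. The first group is labelled tcx5-/- tcx6-/- cmt3-/- and the second cmt3-/-, so every library carries the labelled cmt3 mutation and no wild type enters the comparison. TCX5 and TCX6 encode CXC-domain DNA-binding proteins of DREAM, a repressor complex of cell cycle genes, and CMT3 encodes a chromomethylase that maintains CHG methylation. The comparison asks what the labelled tcx5 and tcx6 mutations change in a cmt3 background. No label states that replicates came from separate plant cultures. The p-values therefore reflect only how far these 4 libraries differ, and part of that spread may be technical. Values are normalized signal, that is, read abundance per gene as scaled by the authors.

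The mutated genes were read first as a check of the labels. TCX5 had 251 and 249 in the libraries labelled tcx5/6;cmt3, against 730 and 676 in cmt3, and CMT3 had 1289 and 1343, against 822 and 662. TCX6 had 919 and 1034 in the libraries labelled tcx5/6;cmt3, against 198 and 180 in cmt3, so its signal was higher where it is labelled mutant. A mutation label names an allele and not an RNA level, so signal per gene cannot settle the labels. The group is therefore called the labelled triple mutant, and the directions given for all genes depend on that label. In units of 1000000, summed signal per library was 39.0 and 39.2 in the labelled triple mutant and 41.1 and 38.3 in cmt3, and the number of reads behind it is unknown.

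Short stretches of the upstream regions are shown because letters matching DREAM-related motifs lie there in some of these genes and not in others. The search covered the 250 bases before each annotated gene start in TAIR10.1 and both strands. TTTGAA is the element bound by LIN54, the CXC protein of human DREAM. Capitals mark the match, which reads TTCAAA where it lies on the opposite strand, or the E2F-type letters TTTCCCGC in the first SYN4 stretch. Each stretch is read on its gene's strand: SYN3 at chr3:21996940-21996977 (plus), SCC2 at chr5:5057779-5057816 (minus), SYN2 at chr5:16364032-16364069 (minus), and SYN4 at chr5:5315986-5316025 and chr5:5316027-5316064 (plus).
SYN3: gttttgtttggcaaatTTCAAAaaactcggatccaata
SCC2: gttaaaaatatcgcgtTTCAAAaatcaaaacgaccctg
SYN2: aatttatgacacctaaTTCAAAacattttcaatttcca
SYN4, first: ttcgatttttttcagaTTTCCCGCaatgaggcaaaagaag
SYN4, second: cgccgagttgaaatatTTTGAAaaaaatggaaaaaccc

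TTTGAA was found upstream of 5 of the 9 genes, the fifth being WAPL2, and in 38.8% of the 27443 protein-coding upstream regions of that length. The WAPL2 stretch, at chr1:22477724-22477761 (plus), is not printed above and overlaps an annotated exon of another gene. The palindrome TTTAAA, also searched as a CXC-type site, was found in 4 of 9 (SYN2, WAPL1, WAPL2 and PDS5A) and in 33.7% of all regions. None of its stretches is printed above. Whether any of these matches goes with a change in signal was not tested. AACGG, the core of the element read by MYB3R factors, was found in 2 of 9 (SCC2 and PDS5A) and in 20.6% of all. An E2F-type match, searched as TTTCCCGC, TTTGGCGC, TTTGCCGC or TTTCGCGC, was found only in SYN4 among the 9 and in 1.41% of all regions. No 2 of the matches found in these genes overlapped. SCC3 and CTF7 held none of the 4 kinds in this window, which says only that these letters are not there.

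Of the 9 genes, 3 were higher in the labelled triple mutant at a limma adjusted p under 0.05: SYN3, SCC2 and SCC3. None was lower by limma, nor at an unadjusted p under 0.05 (0 genes), nor in limma without the mean-variance trend (0 genes). Over all 23666 genes tested, 6.15% were called higher and 2.32% lower. The median log2 fold change of the 9 genes was 0.38, against -0.02 for all tested genes. The labelled triple mutant libraries lay above both cmt3 libraries for 6 of the 9 genes, against 24.4% of all tested genes, and below them for 0 of the 9, against 25.7%. The 6 were the kleisins, SCC3, SCC2 and CTF7, and the 3 whose libraries overlapped were PDS5A, WAPL1 and WAPL2. In bulk seedlings, more cells that express a gene and more RNA per cell cannot be told apart.

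**Figure D1:**
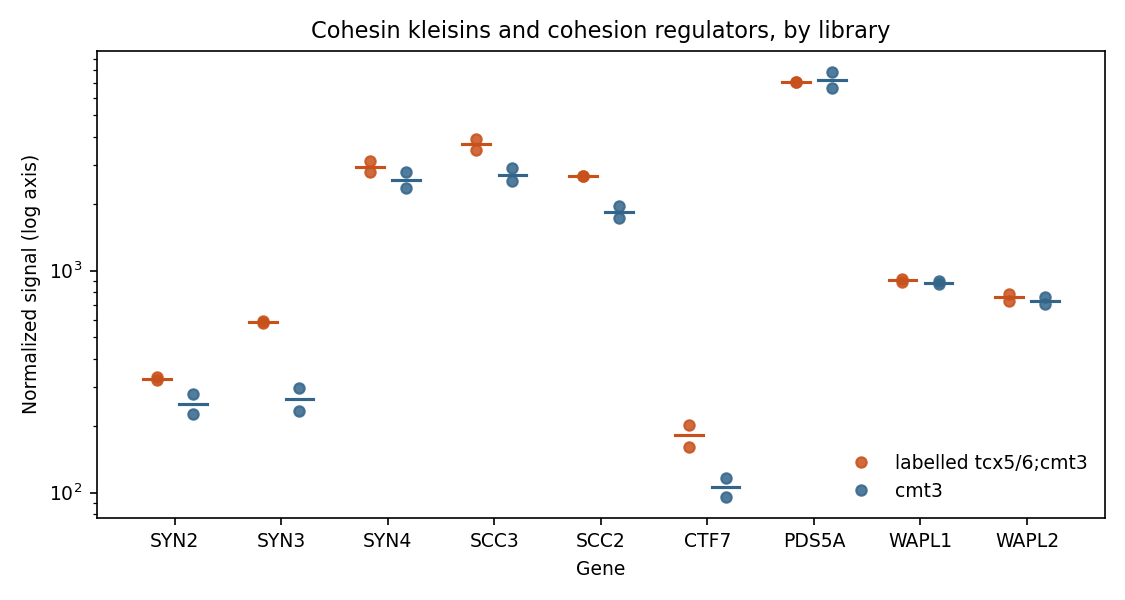
Normalized signal of each gene (log axis) in the 2 labelled triple mutant libraries (left, orange) and the 2 cmt3 libraries (right, blue); points are libraries and bars are means. SYN3 at 590 and 578 stands clear of 297 and 233 in cmt3, while the WAPL1, WAPL2 and PDS5A libraries overlap between the groups.

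SYN3 (AT3G59550, chromosome 3, 21997052 to 22000737, plus strand) showed the largest change of the 9 genes. It encodes an alpha-kleisin of the RAD21 type. SYN3 had 590 and 578 in the labelled triple mutant, against 297 and 233 in cmt3. The groups did not overlap, and the labelled triple mutant libraries lay far closer to each other than the cmt3 libraries did. The log2 fold change was 1.15 ± 0.16 (SE, n = 2 each), or 2.22-fold with a 95% interval of 1.70 to 2.88 (limma adjusted p = 0.00756). The adjusted p was 0.075 in limma without the trend. Without labelled triple mutant replicate 1 or 2 it was at most 0.0389, but 0.28 and 0.267 when the tested genes were kept as with all 4 libraries.

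The other somatic kleisins changed less and did not pass the test. SYN4 (AT5G16270, chromosome 5, 5316197 to 5322700, plus strand), a RAD21-type kleisin with a part in mitotic cohesion, had 3107 and 2768 in the labelled triple mutant, against 2764 and 2345 in cmt3. The lower labelled triple mutant library was nearly level with the higher cmt3 library. Its log2 fold change was 0.20 ± 0.11 (SE, with limma adjusted p = 0.365), with an interval of 0.961-fold to 1.38-fold. SYN2 (AT5G40840, chromosome 5, 16359331 to 16363878, minus strand), a kleisin known for its part in the repair of DNA breaks, had 321 and 330 in the labelled triple mutant, against 226 and 277 in cmt3. The groups did not overlap, but the spread within cmt3 was wider than the gap between the groups. Its log2 fold change was 0.38 ± 0.17 (SE, with limma adjusted p = 0.276), with an interval of 0.983-fold to 1.72-fold. Leaving out 1 library gave log2 fold changes of 0.085 to 0.323 for SYN4 and 0.230 to 0.526 for SYN2.

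Per kilobase of annotated exon, SYN4 was the main somatic kleisin transcript in every library. Exon length was the union over all annotated transcripts of a gene. The scaling of the deposited values is unknown, so they may already account for length. SYN4 made up 71.4% and 69.1% of the summed per-kb signal of SYN2, SYN3 and SYN4 in the labelled triple mutant, against 79.8% and 77.95% in cmt3. The SYN3 share was 20.3% and 21.6% in the labelled triple mutant, against 12.8% and 11.6% in cmt3. The SYN2 share was 8.34% and 9.33% in the labelled triple mutant, within the 7.38% and 10.4% of cmt3. The sum itself was 1147 and 1056 per kb in the labelled triple mutant, against 913 and 793 per kb in cmt3. The shares of SYN3 and SYN4 did not overlap between the groups, but the shift was not tested.

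**Figure D2:**
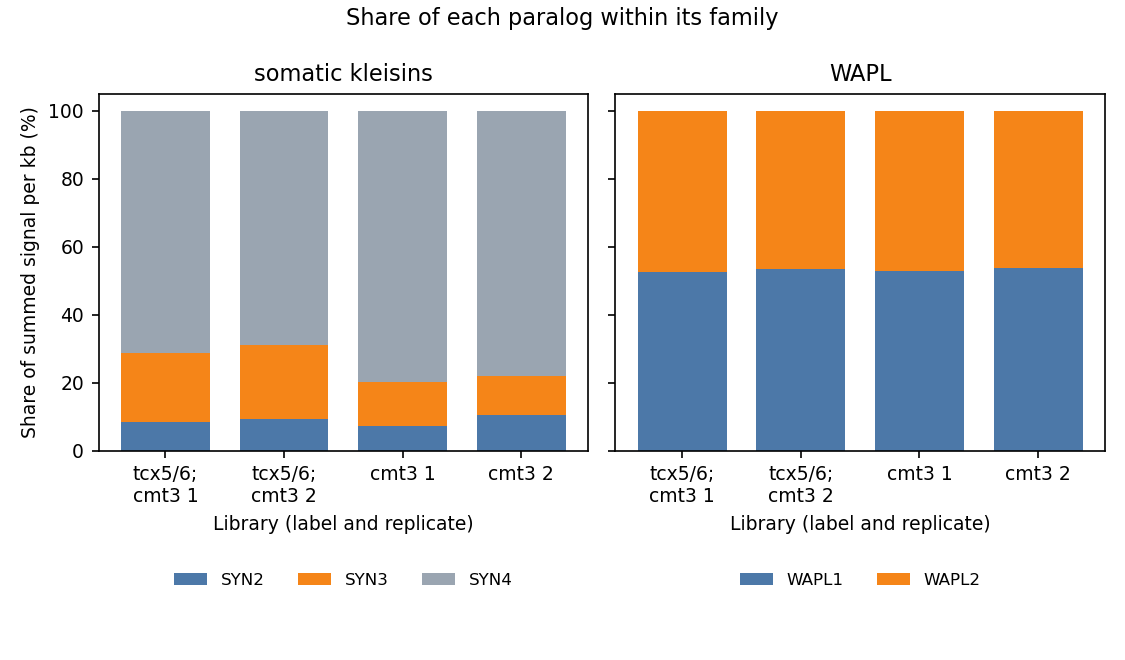
Share (%) of each paralog in the summed signal per kb of its family, one bar per library, labelled triple mutant left and cmt3 right; left panel the somatic kleisins, right panel WAPL1 and WAPL2. The SYN3 segment takes 20.3% and 21.6% in the labelled triple mutant and 12.8% and 11.6% in cmt3, while WAPL1 stays between 52.5% and 53.6% in all 4 libraries.

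The proteins of the somatic kleisins differ widely in sequence. Translated from the annotated coding sequence, SYN2, SYN3 and SYN4 have 810, 693 and 1031 residues. Identity over aligned positions was 31.6% between SYN2 and SYN3, 32.8% between SYN2 and SYN4, and 35.8% between SYN3 and SYN4. WAPL1 and WAPL2, with 930 and 840 residues, were 70.6% identical. None of the 9 genes shared any exact 50-base stretch of annotated transcript with another of the 9 or with the other cohesin genes considered.

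SCC2 (AT5G15540, chromosome 5, 5047515 to 5057666, minus strand), the large subunit of the cohesin loader, rose. SCC2 had 2669 and 2652 in the labelled triple mutant, against 1945 and 1723 in cmt3. The groups were well apart, with the labelled triple mutant libraries almost equal. The log2 fold change was 0.54 ± 0.09 (SE, n = 2 each), or 1.45-fold with an interval of 1.26 to 1.68 (limma adjusted p = 0.0139). SCC4 (AT5G51340), its partner in the loader, had 1272 and 1323 in the labelled triple mutant, against 1292 and 1164 in cmt3. The SCC4 libraries overlapped, and its log2 fold change was 0.08 ± 0.09 (SE, with limma adjusted p = 0.702). The difference between the changes of SCC2 and SCC4 was not tested. Without the trend the adjusted p of SCC2 was 0.134, and without labelled triple mutant replicate 1 or 2 it was 0.108 or 0.103, or 0.335 and 0.318 with the tested genes kept.

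SCC3 (AT2G47980, chromosome 2, 19631207 to 19636978, plus strand), the single SCC3-type subunit in Arabidopsis, also rose, close to the threshold. SCC3 had 3928 and 3487 in the labelled triple mutant, against 2890 and 2518 in cmt3. Both labelled triple mutant libraries were above both cmt3 libraries, with a similar spread in each group. The log2 fold change was 0.46 ± 0.10 (SE, n = 2 each), or 1.37-fold with an interval of 1.15 to 1.63 (limma adjusted p = 0.047). The call was lost with median centring (adjusted p = 0.0691), with a pseudocount of 0.1 (0.0574), without the trend (0.235) and without labelled triple mutant replicate 1 (0.366) or 2 (0.116). With the tested genes kept it was also lost without cmt3 replicate 1 (0.0715) or 2 (0.124). SCC3 overlaps SWA1 by 112 bases on the opposite strand. SWA1 had 317 and 360 in the labelled triple mutant, against 293 and 314 in cmt3, and was not called (limma adjusted p = 0.644).

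CTF7 (AT4G31400, chromosome 4, 15237191 to 15239323, plus strand), the acetyltransferase of SMC3, did not pass the test. Before division by exon length it was the lowest of the 9 genes in signal. CTF7 had 202 and 161 in the labelled triple mutant, against 96.0 and 117 in cmt3. The groups did not overlap, with a wide spread in both. Its log2 fold change of 0.76 ± 0.24 (SE, with limma adjusted p = 0.126) was the second largest of the 9, and the interval ran from 1.14-fold to 2.53-fold. When 1 library was left out, the log2 fold change of CTF7 lay between 0.602 and 0.923. CTF7 shares 770 bases with the antisense lncRNA gene AT4G31398, which had 3.63 and 3.04 in the labelled triple mutant and 10.4 and 18.0 in cmt3, and no source used here says whether counting used strand. CTF7 also shares 3 bases with ACDO1 on the same strand, which had 2217 and 2456 in the labelled triple mutant, against 3683 and 2834 in cmt3 (limma adjusted p = 0.101).

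PDS5A (AT5G47690, chromosome 5, 19317668 to 19327431, plus strand), the longest of the Arabidopsis PDS5 proteins by annotation, was the most abundant of the 9 genes. PDS5A had 7090 and 7059 in the labelled triple mutant, against 7828 and 6637 in cmt3. The labelled triple mutant libraries lay between the cmt3 libraries. The log2 fold change was -0.03 ± 0.10 (SE, with limma adjusted p = 0.93), with an interval of 0.825-fold to 1.17-fold. The sign was not stable, with a positive value of 0.00039 under quantile normalization.

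WAPL1 (AT1G11060, chromosome 1, 3684568 to 3689892, plus strand) and WAPL2 (AT1G61030, chromosome 1, 22477896 to 22482451, plus strand), which release cohesin from chromosomes, were not called. WAPL1 had 920 and 889 in the labelled triple mutant, against 896 and 866 in cmt3. WAPL2 had 784 and 730 in the labelled triple mutant, against 756 and 706 in cmt3. The libraries of the groups interleaved for both genes. Log2 fold changes were 0.04 ± 0.09 (SE) for WAPL1 (limma adjusted p = 0.877) and 0.05 ± 0.10 for WAPL2 (adjusted p = 0.854), with intervals of 0.885-fold to 1.19-fold and 0.874-fold to 1.23-fold. With quantile normalization both values were -0.014. WAPL1 held 52.5% and 53.4% of the per-kb signal of the pair in the labelled triple mutant, against 52.8% and 53.6% in cmt3.

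**Figure D3:**
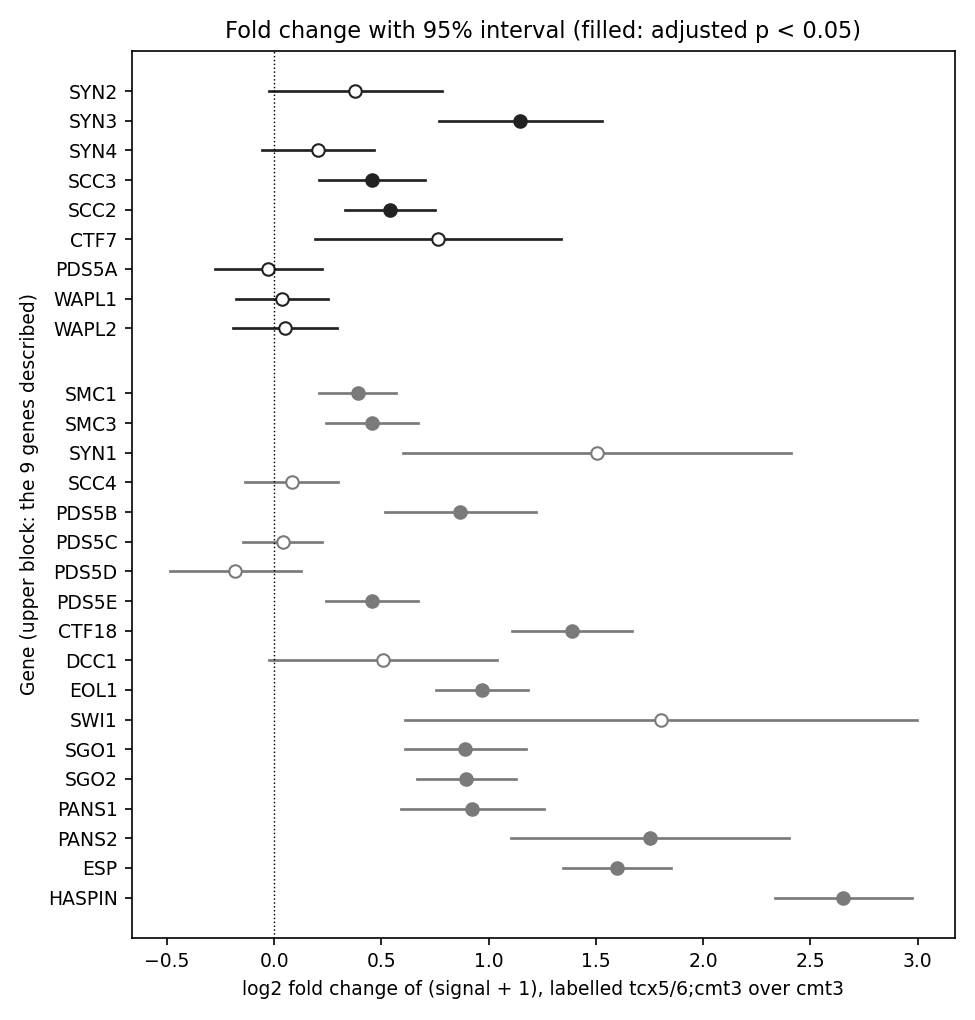
Log2 fold change of signal + 1, labelled triple mutant over cmt3 (x axis), with 95% intervals for the 9 genes (upper block) and 18 other cohesin and cohesion genes (lower block); filled points have a limma adjusted p under 0.05. In the upper block SYN3 at 1.15, SCC2 at 0.54 and SCC3 at 0.46 are filled, and in the lower block 12 of 18 are filled, up to HASPIN at 2.65.

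On the scale of signal per kb, the order of mean level was the same in both groups: PDS5A, SCC3, SYN4, SCC2, WAPL1, WAPL2, SYN3, CTF7 and SYN2. In the labelled triple mutant each gene's libraries lay above those of the next gene in that order, with means of 1256, 1003, 774, 431, 287, 255, 231, 134 and 97.1 per kb. In cmt3 the means were 1284, 732, 673, 297, 280, 246, 105, 78.4 and 75.1 per kb. There the libraries overlapped between SCC3 and SYN4, between SCC2 and WAPL1, and between CTF7 and SYN2, so these pairs had no order beyond their spread. SYN3 stood next to WAPL2 at 231 against 255 per kb in the labelled triple mutant, and well below it at 105 against 246 per kb in cmt3.

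The 18 other cohesin and cohesion genes gave 12 calls higher and 0 lower by limma, against 6.15% and 2.32% of all tested genes. At an unadjusted p under 0.05 there were 14 higher and 0 lower, against 12% and 8.48% of all tested genes. Limma without the trend called 6 of the 18 higher and 0 lower, against 586 and 135 of the 23666 tested genes. The median log2 fold change of the 18 was 0.89. The ring subunit genes SMC1 (AT3G54670) and SMC3 (AT2G27170) rose by amounts close to that of SCC3. SMC1 had 2747 and 2816 in the labelled triple mutant, against 2161 and 2085 in cmt3 (a log2 fold change of 0.39 ± 0.07 as SE, with limma adjusted p = 0.0252), and SMC3 had 2836 and 2684, against 2134 and 1898 (0.45 ± 0.09; adjusted p = 0.0284). Both calls were lost without the trend (adjusted p of 0.16 for SMC1 and 0.182 for SMC3) and without labelled triple mutant replicate 1 (0.234 and 0.252) or 2 (0.302 and 0.145). The meiotic kleisin SYN1 had 50.8 and 53.9 in the labelled triple mutant, against 18.6 and 16.99 in cmt3. Its log2 fold change of 1.504 did not pass (limma adjusted p = 0.0652). SYN1 passed without the trend (limma adjusted p = 0.0275) and with a pseudocount of 10 (0.034). It did not pass with quantile normalization (0.0747) or the replicate block (0.119). Leaving out 1 library gave SYN1 log2 fold changes of 1.44 to 1.57. SWI1, which protects meiotic cohesin from WAPL, had 25.1 and 40.4, against 7.61 and 9.29 (adjusted p = 0.0883).

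Among the PDS5 relatives, PDS5B and PDS5E rose and the rest did not pass. PDS5B (AT1G77600) had 2433 and 2198 in the labelled triple mutant, against 1467 and 1095 in cmt3 (a log2 fold change of 0.87 ± 0.15 as SE, with limma adjusted p = 0.0161). PDS5E (AT1G15940) had 1980 and 1902, against 1495 and 1338 (0.46 ± 0.09; adjusted p = 0.0275). Without the trend the adjusted p was 0.157 for PDS5B and 0.171 for PDS5E, and without labelled triple mutant replicate 1 or 2 PDS5E was at 0.241 or 0.16. PDS5B kept its call in those 2 fits, with log2 fold changes of 0.794 and 0.941. It lost the call in both when the tested genes were kept as with all 4 libraries. PDS5C had 2579 and 2598 in the labelled triple mutant, against 2597 and 2444 in cmt3, and PDS5D had 517 and 527, against 646 and 542, with limma adjusted p of 0.846 and 0.506. On the per-kb scale PDS5A held on average 39.6% of the summed signal of the 5 PDS5 genes in the labelled triple mutant, against 45.1% in cmt3, and PDS5B held 15.2%, against 9.31%. This shift was not tested.

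Of 9 genes linked to cohesion at replication forks, at centromeres or at anaphase, limma called 8 higher, against 6.15% of all tested genes. These genes are part of the list of other cohesin and cohesion genes and form no list of their own. CTF18, of the clamp loader that works in cohesion, had 1000 and 886 in the labelled triple mutant, against 367 and 351 in cmt3 (log2 fold change 1.39, limma adjusted p = 0.00121). EOL1, a relative of yeast CTF4, had 1448 and 1417, against 758 and 704 (0.97, adjusted p = 0.00176), while DCC1, a partner of CTF18 in yeast, had 276 and 302, against 169 and 244, and did not pass (0.51, adjusted p = 0.267). The separase gene ESP had 1244 and 1255 in the labelled triple mutant, against 435 and 390 in cmt3 (1.60, adjusted p = 0.000617). HASPIN, a kinase that marks histone H3 at centromeres, had 1042 and 1061, against 155 and 179 (2.65, adjusted p = 0.000404). The shugoshin genes SGO1 and SGO2 and the genes PANS1 and PANS2, all of which protect centromeric cohesion, rose with log2 fold changes of 0.89, 0.90, 0.92 and 1.75 (limma adjusted p = 0.00625, 0.00295, 0.0105 and 0.0115). Without the trend the calls of SGO1 (adjusted p = 0.0621), SGO2 (0.0573) and PANS1 (0.0777) were lost. PANS1 also lost its call without labelled triple mutant replicate 1 (0.102), and SGO1 (0.0597) and PANS2 (0.117) without replicate 2. With the tested genes kept as with all 4 libraries, each of these 8 lost its call without labelled triple mutant replicate 1 or 2 (limma adjusted p between 0.138 and 0.317). No difference between these genes and the 9 members (SYN2, SYN3, SYN4, SCC3, SCC2, CTF7, PDS5A, WAPL1 and WAPL2) was tested.

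**Figure D4:**
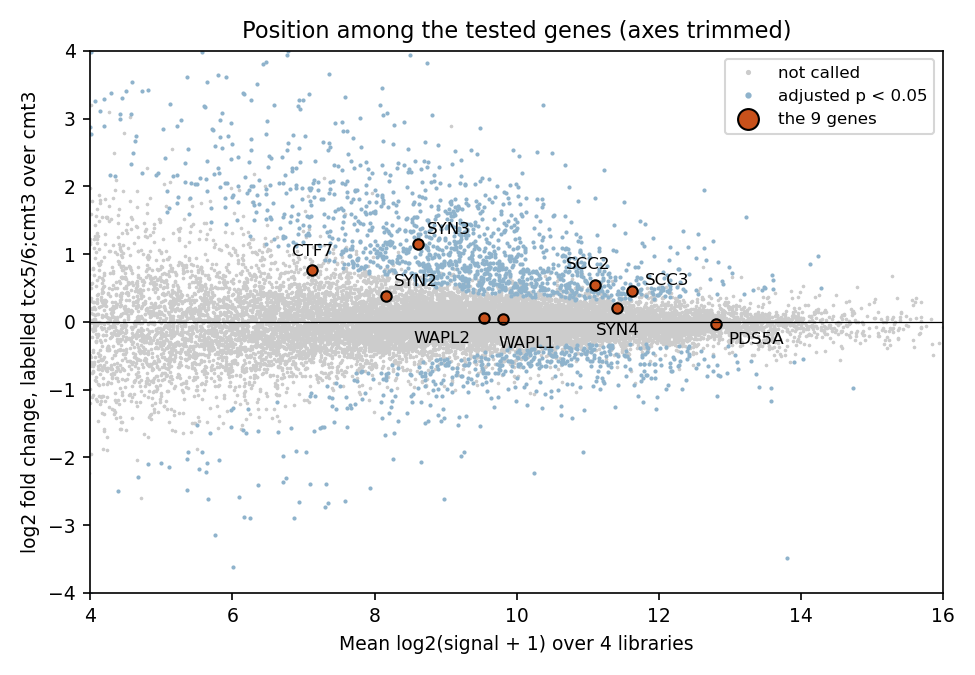
Log2 fold change (labelled triple mutant over cmt3) against mean log2(signal + 1) over the 4 libraries for the tested genes, of which 3434 of 23666 lie outside the axes; blue points have a limma adjusted p under 0.05 and the 9 genes are marked. SYN3, SCC2 and SCC3 sit among the called genes at 1.15, 0.54 and 0.46, and CTF7 at 0.76 sits at a lower mean signal and was not called.

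Markers of dividing cells were higher too. Of 10 such markers 9 were called higher by limma, against 6.15% of all tested genes. The summed signal of the 10 was 20281 and 20023 in the labelled triple mutant, against 11043 and 10127 in cmt3. The exception was the histone gene HIS4, which was lower, at 1976 and 2116 in the labelled triple mutant, against 2355 and 2343 in cmt3. It was not called (limma adjusted p = 0.212), but its unadjusted limma p was 0.0396. At an unadjusted p under 0.05, 8.48% of all tested genes were lower. Of 5 floral markers SEP3 rose, at 960 and 668 in the labelled triple mutant, against 283 and 259 in cmt3 (limma adjusted p = 0.00471). AP1, AG, AP3 and PI lay between 1.98 and 40.5 in all 4 libraries and were not called. The sum of the 5, most of it SEP3, was 1041 and 728 in the labelled triple mutant, against 324 and 307 in cmt3. The part of dividing or floral cells in the changes of the 9 genes was not tested. The markers of dividing cells are themselves cell cycle genes, the kind that DREAM represses. Their signal therefore cannot tell the number of dividing cells in these libraries. Leaf and root markers are ones that whole seedlings should hold. The 4 tested leaf markers had 7111 or more in every library, and the 5 root markers lay between 191 and 1780. Limma called 0 of 4 tested leaf and 0 of 5 root markers, and none at an unadjusted p under 0.05 (0 and 0 genes). The leaf marker LHCB1.5, the meristem markers WUS and CLV3 and the pollen marker VGD1 were listed at 0 in all 4 libraries. Limma called 0 of the 3 tested meristem markers and 0 of the 3 tested seed markers, with 0 and 0 at an unadjusted p under 0.05.

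The genes on either side of the 9, or overlapping them, were read from the same fit. Limma tested 18 of the 21 such genes and called 0 of them, against 6.15% called higher and 2.32% lower over all tested genes. AT5G40830 and UPM1 beside SYN2 were lower at an unadjusted limma p under 0.05 (0.0235 and 0.00939). So were ACDO1 and AT4G31398, which overlap CTF7 (0.012 and 0.0263), and 8.48% of all tested genes. None of the neighbours was higher at that threshold. The gene whose pattern over the 4 libraries was closest to SYN3, by root mean square distance of centred log2 values among 17390 genes averaging at least 100, was TSO2, a ribonucleotide reductase small subunit gene, at a distance of 0.024. TSO2 had 8021 and 8047 in the labelled triple mutant, against 4204 and 3314 in cmt3, and it is also one of the 10 markers of dividing cells. The closest to SCC3 was AT5G10370, a helicase domain gene (distance 0.0094), the closest to SYN2 was AT5G24760, a dehydrogenase family gene (0.008), and the closest to SYN4 was UGT80B1, a glycosyltransferase gene (0.0126). With 4 libraries and 17390 candidate genes, a close match says little about any of these genes, and shared regulation was not tested.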

How the data were processed

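The authors deposited 1 table of normalized signal per gene, with 1 column per library. HISAT2, edgeR and TAIR10 are named without role or version, per the submitters' processing notes; no source used here gives the counter, its strand setting or the scaling step, and depth is unknown. Another 4 columns match no sample given here and were not used. Values under 1e-10 were set to 0. A gene was tested if at least 2 libraries reached a value of 1. Limma 3.58.1 (R 4.3.3) was applied to log2(value + 1), with the mean-variance trend and genotype as the only term, and p-values were adjusted by Benjamini-Hochberg over all tested genes. The added 1 shrinks the fold changes of low genes. The fit was tested on simulated data. All 32548 identifiers matched TAIR10.1, from which coordinates (1-based), exon lengths and upstream sequence (RefSeq) were taken with Python 3.11.15; proteins were aligned globally with Biopython 1.88 and BLOSUM62.

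The list of members uses no measured value, but it, the other lists and the tests were drawn up with earlier results of these data known. Named genes were the 9 members, all genes of the mutated and cohesin lists, and overlapping or called neighbours. Also named were the nearest pattern to each kleisin and SCC3, and called markers. HIS4, AT5G40830 and UPM1 were named after their values were seen. Alternatives were quantile normalization, median centring, no filter or a filter at 5, pseudocounts of 0.1 and 10, no trend, a replicate block, a threshold of 0.01 and leaving out each library.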

Additional observations from a re-analysis of the deposited data

How the results depend on the processing

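Quantile normalization, median centring, no filter or a filter at 5, and pseudocounts of 0.1 or 10 left 2 or 3 of the 9 genes called higher, and SYN3 and SCC2 were called under each of them. Limma without the trend called 586 genes higher and 135 lower over all genes, 0 of the 9 and 6 of the 18 other cohesin genes. A threshold of 0.01 gave 780, 173, 1 (SYN3) and 6. With the replicate block 1314 genes were called higher and 473 lower, including 3 of the 9 and 12 of the 18, so it changed no call among them. The labels give no reason to pair replicate numbers, and the deviations of same-numbered libraries correlated at -0.0459 across 17399 genes.

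Leaving out 1 library gave 0 to 3068 genes higher and 0 to 2568 lower, 0 to 5 of the 9 higher and 0 to 15 of the 18 higher. Of the 18, 8 and 7 were called without labelled triple mutant replicate 1 and 2. Without labelled triple mutant replicate 1 the counts were 757 higher and 212 lower, and without replicate 2 they were 720 and 217; of the 9, SYN3 alone passed in both (adjusted p of at most 0.0389). An alternative chosen after seeing the data kept the 23666 tested genes in these fits. Without labelled triple mutant replicate 1 or 2 limma then called 0 genes higher and 0 lower, with 1586 and 821 or 1611 and 879 at an unadjusted p under 0.05, and SYN3 had an adjusted p of 0.28 or 0.267. Those fits hold 102 genes with no spread in the remaining pair, which the filter on the remaining libraries removes. With cmt3 replicate 1 or 2 left out in that way, 2 of the 9 and 12 or 7 of the 18 were called higher, and 341 or 530 of all genes lower.

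The sign turned for 4 genes that were not called. WAPL1 was at -0.014 with quantile normalization and -0.012 with median centring. WAPL2 was at -0.014 with quantile normalization and from -0.0015 to 0.102 when 1 library was left out. PDS5A was at 0.00039 with quantile normalization and from -0.146 to 0.092 when 1 library was left out. PDS5C was at -0.011 with median centring and from -0.0046 to 0.0832 when 1 library was left out. The depth behind each value is unknown, so no limit of detection is given.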
